A study of Mus musculus with 27 samples.

Results

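The 9 genes described here, Clu, Anxa1, Ly6a, Il1rn, Areg, Ereg, Basp1, Il33 and Msln, are linked to the fetal-type and regenerative states of the intestinal epithelium and were followed across every group of a study of Taf4 loss in the mouse gut. They were chosen by symbol, without a threshold on their values, and each was found once in all 3 deposited tables, which share 16403 gene symbols. The study had itself named Clu, Areg, Il1rn and Msln from the organoid samples used here, so that their direction in organoids is not independent evidence.

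RNA-seq was available for 27 libraries in 9 groups of 3. Taf4 encodes a subunit of TFIID, the complex that assembles with RNA polymerase II at promoters. It was inactivated by Cre recombinase under the villin promoter, which drives expression in intestinal epithelium, so that other cells of the tissue kept the gene. In organoids, adults and tumours the recombinase was CreERT2, which requires tamoxifen or its metabolite 4-hydroxytamoxifen (4-OHT).

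Organoids were epithelial cultures grown from ileal crypts of C57Bl6/129sv mice, 4 months old. One group, here EPZ, was given 1 µM 4-OHT for 3 days with 1 µM EPZ6438, an inhibitor of the methyltransferase Ezh2, and grown for 11 days. A second group had 4-OHT and no inhibitor, a treatment that the labels state for some of its libraries, and the control group had the ethanol vehicle. By the methods, in contrast, controls were floxed organoids lacking CreERT2 and exposed to 4-OHT, so a difference from control cannot be told apart from one between cultures. The methods place the 4-OHT and control organoids at day 3 of culture. They place EPZ organoids later, on a day that differs from the 11 days of the labels. EPZ and days in culture cannot be told apart either. The organoid replicates were culture wells by the methods.

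Ileum of 8-week adults and whole intestine of E17.5 embryos, also C57Bl6/129sv, each came as a group labelled KO and a group labelled WT. By the labels KO mice had tamoxifen and WT mice sunflower oil. By the methods, adults of both groups were floxed and had tamoxifen, and embryos were floxed with or without a villin-Cre that requires no drug. Tumours were ileal and arose in Apc mutants (APCd14, a truncating allele) on a mixed background of 129SV and C57Bl/6, labelled Taf4 KO or Taf4+/+, with tamoxifen at 6 to 8 weeks of age. Whole tissue and tumours hold stroma and immune cells beside the epithelium.

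Before birth the gut epithelium holds proliferating progenitors beside cells that differentiate. After injury adult crypts can return to a state that shares genes with those progenitors. Clusterin (Clu) marks cells that appear in damaged crypts and rebuild the stem cell pool, and Ly6a (Sca-1) and Anxa1 are found in fetal cultures and repairing epithelium. YAP, a transcriptional coactivator that binds TEAD factors, and signalling through the EGF receptor both take part in that repair.

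The genes lie on 6 chromosomes and none overlapped another gene in the mm9 annotation (GENCODE M1). Ereg (chromosome 5, 91503643 to 91522675, plus strand, 5 exons) and Areg (chromosome 5, 91568641 to 91577458, plus strand, 6 exons) are neighbours 45965 bases apart. Il1rn lies on chromosome 2 (24192373 to 24207014, plus strand), Clu on chromosome 14 (66587320 to 66600385, plus strand) and Msln on chromosome 17 (25885559 to 25891272, minus strand). Anxa1 (20447918 to 20465434, minus strand) and Il33 (29999604 to 30035194, plus strand) are both on chromosome 19, Basp1 (25293040 to 25343519, minus strand) and Ly6a (74825308 to 74828064, minus strand) both on chromosome 15. Ly6a belongs to a family of similar sequence. By the methods only uniquely aligned reads were counted in organoids, adults and embryos, so reads shared with its relatives were left out there.

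Since TFIID acts at the core promoter, the 250 bases before the transcription start are shown for 4 of the 5 genes that matched in the RefSeq promoter table (GRCm38.p6). Areg and Il1rn are the matched genes whose mean was over 2-fold higher with 4-OHT, Anxa1 had its highest mean with EPZ, and Basp1 was listed at 0 after 4-OHT. They are chr5:91139349-91139598 (plus strand) for Areg, chr2:24336610-24336859 (plus strand, the first of 3 starts) for Il1rn, chr19:20390672-20390921 (minus strand) for Anxa1 and chr15:25413765-25414014 (minus strand) for Basp1. Each runs 5′ to 3′ and ends at the base before the start. Capitals mark matches on either strand to the TATA box TATAAA, the TEAD motif GGAATG, the AP-1 motif TGANTCA and the cyclic AMP response element TGACGTCA.
Areg: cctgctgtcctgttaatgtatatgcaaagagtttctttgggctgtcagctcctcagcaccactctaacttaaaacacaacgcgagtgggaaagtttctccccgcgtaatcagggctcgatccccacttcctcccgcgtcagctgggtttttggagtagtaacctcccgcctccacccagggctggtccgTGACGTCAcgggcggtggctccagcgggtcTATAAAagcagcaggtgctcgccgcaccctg
Il1rn: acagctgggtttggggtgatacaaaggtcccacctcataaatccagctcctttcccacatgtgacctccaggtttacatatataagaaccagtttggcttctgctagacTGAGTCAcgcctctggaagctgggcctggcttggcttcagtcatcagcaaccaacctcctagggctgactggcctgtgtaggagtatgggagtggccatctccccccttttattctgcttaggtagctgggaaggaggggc
Anxa1: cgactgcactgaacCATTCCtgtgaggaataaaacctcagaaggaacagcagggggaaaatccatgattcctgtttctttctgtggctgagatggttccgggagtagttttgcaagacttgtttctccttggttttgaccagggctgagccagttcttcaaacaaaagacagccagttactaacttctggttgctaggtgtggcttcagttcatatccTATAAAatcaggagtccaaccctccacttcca
Basp1: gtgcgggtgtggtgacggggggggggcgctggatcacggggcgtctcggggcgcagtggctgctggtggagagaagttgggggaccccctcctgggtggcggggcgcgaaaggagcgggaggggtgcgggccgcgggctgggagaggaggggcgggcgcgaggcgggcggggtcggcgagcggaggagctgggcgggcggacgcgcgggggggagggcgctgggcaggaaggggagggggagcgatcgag

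The TATA letters began 31 bases before the start in Areg and 32 bases before it in Anxa1, and the same letters stand in 12.4% of 32851 windows of that length in the RefSeq table. Areg also held the cyclic AMP element, beginning 61 bases before the start, which stands in 1.55% of windows. The AP-1 letters of Il1rn began 141 bases before its first start and occur in 6.75% of windows. The TEAD letters of Anxa1 began 236 bases before its start and occur in 12.6%. Il1rn also held the TEAD letters, beginning 24 bases before the last of its 3 starts, and none of the 4 motifs before the middle one. The Basp1 window held none of the 4 motifs and was 78.8% G and C, against a median of 52.4% over all windows. Il33, the other matched gene, held the TEAD and TATA letters before both of its starts. Its TATA letters began 203 bases before the first start and 29 bases before the second. A match of letters does not show that a factor binds there.

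For organoids, adults and embryos 1 mean per group was deposited, in normalized counts, with no value per library. No spread or test was therefore possible, and a gene was counted as higher or lower when the means, with 1 added to each, differed by over 2-fold and the higher mean was at least 10. Taf4a itself averaged 286 normalized counts in 4-OHT and 264 in control organoids, 494 in KO and 373 in WT adults, and 300 in KO and 226 in WT embryos. In tumours Taf4 had 13.0 to 13.9 FPKM in KO and 10.5 to 11.4 FPKM in Apc libraries. A deletion of single exons is not visible in a sum over the gene, and the labels could not be checked in this way.

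The question in organoids was what the epithelium expresses once Taf4 is lost in culture. Clu, Il1rn, Areg and Msln were all over 2-fold higher with 4-OHT, and Basp1 was listed at 0. These 4 higher and 1 lower genes were of 7 that reached the minimum of 10, where 11.9% of 13929 genes were higher and 11.3% lower. The median log2 ratio of the 7 genes was 1.24, beside 0.00 over all genes. The 4 higher genes are those that the study had named from these samples, so neither the count nor the median is independent evidence. In RNA from whole cultures, more cells of a type and more RNA per cell cannot be told apart.

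**Figure D1:**
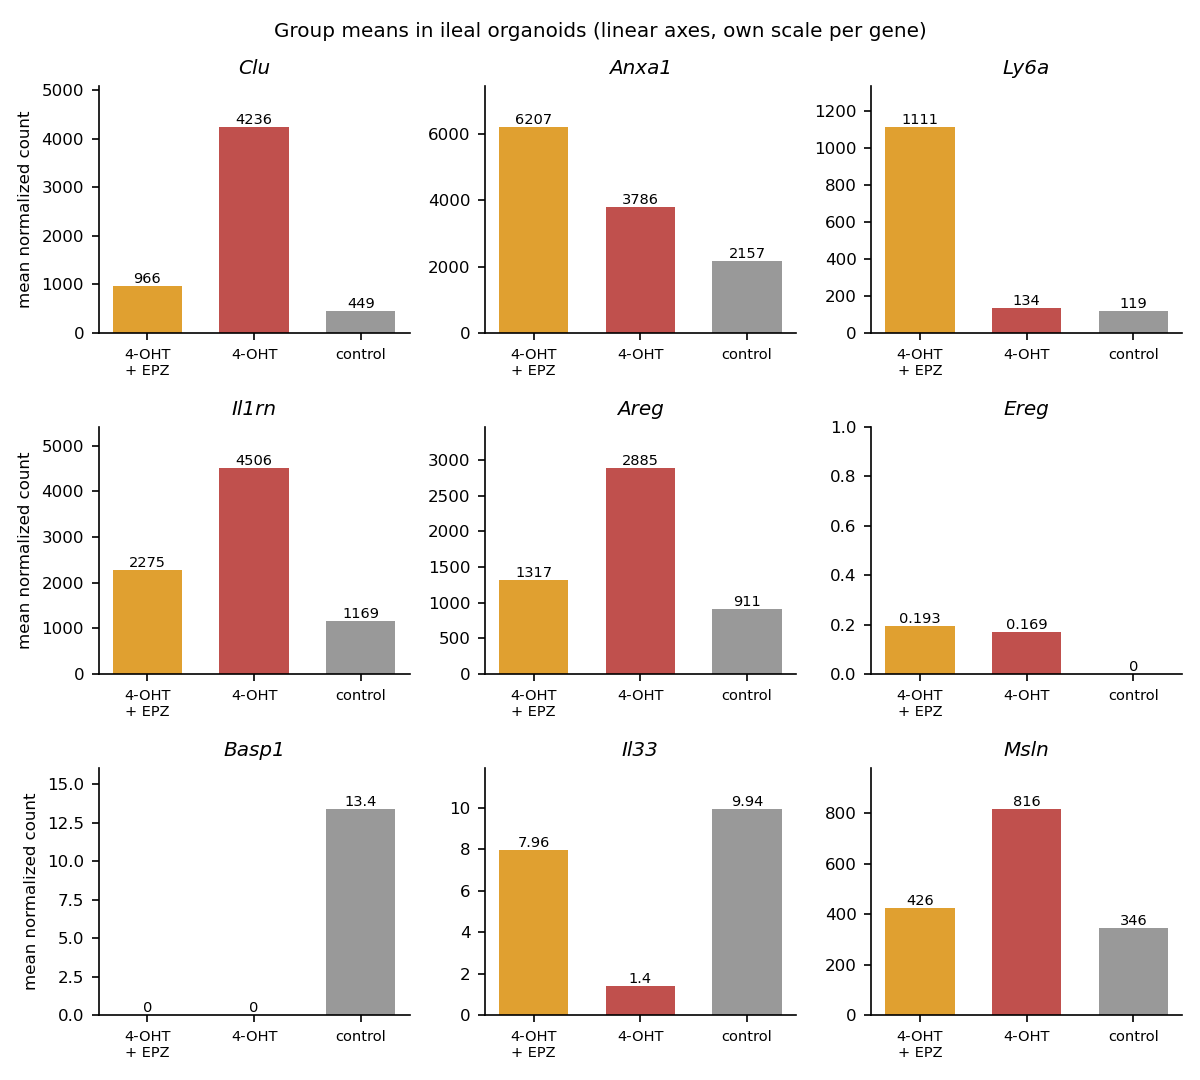
Mean normalized count of each gene (y axis, linear, own scale per panel) in organoids given 4-OHT with EPZ, 4-OHT alone or control treatment; each bar is the authors' mean of a group, with no error available. Clu, Il1rn, Areg and Msln are highest with 4-OHT alone, and Ly6a and Anxa1 are highest with EPZ.

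Areg and Ereg encode ligands of the EGF receptor. Areg averaged 2885 normalized counts in 4-OHT organoids and 911 in control organoids, a 3.17-fold difference (log2 ratio 1.66). Ereg, its neighbour on the chromosome, was listed at 0.17 in 4-OHT organoids and at 0 in control organoids, which is too low for a comparison. Of the pair, Areg alone was thus read in these cultures at more than trace level.

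Il1rn encodes the secreted antagonist of the IL-1 receptor and Il33 an IL-1 family alarmin of the nucleus. Il1rn averaged 4506 in 4-OHT organoids and 1169 in control organoids (3.85-fold, log2 ratio 1.95). Il33 had 1.40 in 4-OHT organoids and 9.94 in control organoids, both under the minimum. Il1rl1, the receptor of IL-33, had 27.8 in 4-OHT and 1.17 in control organoids.

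Clu, a secreted chaperone, showed the largest increase of the 9 genes, with 4236 in 4-OHT organoids and 449 in control organoids (9.44-fold, log2 ratio 3.24). Its ratio lay above that of 98.9% of genes over the minimum. Msln, a surface protein anchored by a lipid and typical of mesothelium, averaged 816 in 4-OHT organoids and 346 in control organoids (2.36-fold). Mesothelial markers summed to 18.3 in 4-OHT and 72.9 in control organoids over 5 measured genes, a difference carried by Upk3b, with 2.67 in 4-OHT and 64.1 in control organoids. Upk1b, the only other one over the minimum, had 12.4 in 4-OHT and 6.88 in control organoids, so the list had no common direction.

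Anxa1, a membrane-binding protein that limits inflammation, had 3786 in 4-OHT and 2157 in control organoids (1.76-fold). Ly6a, a surface protein anchored by a lipid, had 134 in 4-OHT and 119 in control organoids (1.13-fold). Both stayed within 2-fold. Basp1, a membrane protein first known from neurons, was listed at 0 in 4-OHT organoids and at 13.4 in control organoids, which is close to the minimum and gives no fold.

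Markers of other cell types were low in these cultures beside those of epithelium, with some lists above a trace. The summed means over a list were 4.86 in 4-OHT and 8.61 in control organoids for T and NK cells, 4.94 and 7.56 for endothelium, 21.1 and 37.5 for fibroblasts, 59.8 and 53.0 for macrophages, 54.7 and 43.5 for smooth muscle, and 187 and 328 for enteric neurons and glia. Epithelial markers summed to 153959 in 4-OHT and 95898 in control organoids.

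Other genes of the fetal and regenerative states were read from a list of 29, of which 21 reached the minimum. In 4-OHT organoids 11 of them were higher and 2 lower, with a median log2 ratio of 1.09. S100a11, a calcium-binding protein, had 1403 in 4-OHT and 203 in control organoids, Ly6d had 1294 and 225, and Anxa10 had 1526 and 271. Hmga2, a chromatin protein of embryonic tissues, was among the lower genes, with 110 in 4-OHT and 298 in control organoids. Of 16 YAP target genes, 11 reached the minimum, 4 were higher and 1 lower, the higher ones being Axl, F3, Ccn1 and Lats2. Of 12 feedback genes of EGF receptor signalling the phosphatases Dusp5 (482 in 4-OHT and 142 in control) and Dusp6 (166 in 4-OHT and 70.3 in control) were higher and none lower. The median log2 ratio of this list was -0.20 over the 11 genes that reached the minimum. Its summed level was 4110 in 4-OHT and 5020 in control organoids. As a counterpart, 7 of 10 crypt stem cell genes were lower and none higher, with Lgr5 at 643 in 4-OHT and 2605 in control organoids, and Olfm4 at 152 and 4947.

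The EPZ group asks how expression after Taf4 loss stands once Ezh2 is inhibited. The genes parted into those nearer to control than with 4-OHT alone and those further from it. Clu and Areg were over 2-fold lower in EPZ than in 4-OHT organoids and Ly6a was over 2-fold higher, while 17.2% of 14109 genes were higher and 18.0% lower. The median log2 ratio of the 6 genes over the minimum was -0.96, beside 0.01 over all genes.

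Clu had 966 in EPZ organoids, against 4236 in 4-OHT organoids (log2 ratio -2.13), and 13.6% of the difference between the 4-OHT and control means remained. Clu was still 2.15-fold above control organoids, which had 449. With group totals made equal, this was under 2-fold (log2 ratio 0.89). Areg had 1317 in EPZ and 2885 in 4-OHT organoids (log2 ratio -1.13), with 20.5% of its difference remaining. For Il1rn, which had 2275 in EPZ and 4506 in 4-OHT organoids, 33.2% remained, and for Msln, which had 426 and 816, 17.1%. Il1rn and Msln fell just inside 2-fold, with log2 ratios of -0.99 and -0.94. Because the 4-OHT means enter both differences, a high 4-OHT mean raises the one and lowers the other.

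Ly6a and Anxa1 did not share this course. Ly6a had 1111 in EPZ organoids, against 134 in 4-OHT organoids (8.32-fold, log2 ratio 3.05) and 119 in control organoids (9.37-fold). Its ratio to 4-OHT organoids lay above that of 97.7% of genes over the minimum. Anxa1 had 6207 in EPZ, 3786 in 4-OHT and 2157 in control organoids, 1.64-fold above 4-OHT and 2.88-fold above control. Ly6c1, another gene of the Ly6 family, had 53.4 in EPZ and 4.36 in 4-OHT organoids. Il33 was back at 7.96 in EPZ organoids, Basp1 was listed at 0 and Ereg at 0.19.

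Of the 29 other fetal and regenerative genes 24 reached the minimum, and 6 were higher and 4 lower in EPZ than in 4-OHT organoids (median log2 ratio -0.09). Ly6c1, Gja1 and Vsig1 had the largest increases. Igf2bp3, an RNA-binding protein of fetal tissues, was lower at 16.5 in EPZ and 122 in 4-OHT organoids. Of the YAP targets 5 of 11 were lower and only Ptpn14 was higher. Tead2, a TEAD factor, had 516 in EPZ, 17.4 in 4-OHT and 269 in control organoids. Neutrophil markers summed to 80.9 in EPZ and 7.10 in 4-OHT organoids, a difference carried by 3 of 7 genes. These were S100a8 (52.3 in EPZ and 5.24 in 4-OHT), S100a9 (14.8 and 0) and Ly6g (13.3 and 1.03). Cxcr2, Csf3r and Retnlg were listed at 0 in EPZ organoids and Mmp8 at 0.53, and all were under the minimum in both groups. The 3 genes of the list that reached the minimum were thus all higher. The part of neutrophil markers in the Ly6a difference was not tested.

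The name fetal-type was set against the WT groups, where it holds for few of these genes at the level of whole tissue. Of the 9 genes 6 were over 2-fold higher in adult than in embryonic WT tissue, Basp1 alone was lower, and Il33 and Msln were within 2-fold, where 18.3% of 17381 genes were higher and 15.2% lower. The median log2 ratio was 2.08, beside 0.02 over all genes. Stage, part of the gut sampled and cell makeup differ together between these groups.

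Ly6a had 1719 in adult WT and 39.1 in embryonic WT tissue (44.0-fold, log2 ratio 5.42), and Il1rn had 192 and 4.23. Clu had 1166 in adult WT and 136 in embryonic WT tissue (8.55-fold), Ereg 165 and 27.0 (6.11-fold) and Areg 136 and 31.4 (4.33-fold). Anxa1 had 1124 in adult and 506 in embryonic WT tissue (2.22-fold) and drops under 2-fold when the group totals are made equal (log2 ratio 0.81). These 6 genes were thus lowest before birth.

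Basp1 had 158 in adult WT and 486 in embryonic WT tissue (log2 ratio -1.61), Il33 had 266 in adult and 296 in embryonic WT tissue, and Msln 177 and 185. Genes known for fetal expression behaved otherwise, with Igf2bp1 at 4.58 in adult and 1944 in embryonic WT tissue and Igf2bp3 at 4.67 and 550. In the list of 29 other genes 13 were higher and 4 lower in adults. T and NK cell markers summed to 6451 in adult and 76.1 in embryonic WT tissue, macrophage markers to 7190 and 2521, epithelial markers to 192436 and 56922, and fibroblast markers to 29238 and 102903. B and plasma cell markers summed to 26090 in adult and 9.53 in embryonic WT tissue, and those of enteric neurons and glia, where 6 of 9 genes were lower as was Basp1, to 581 and 1680. Their part in the stage difference was not tested. The groups labelled KO gave 5 genes higher and 2 lower in adults, with Il33 joining Basp1 at 224 in adult and 533 in embryonic KO tissue, where 19.1% of 17312 genes were higher and 17.2% lower.

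**Figure D2:**
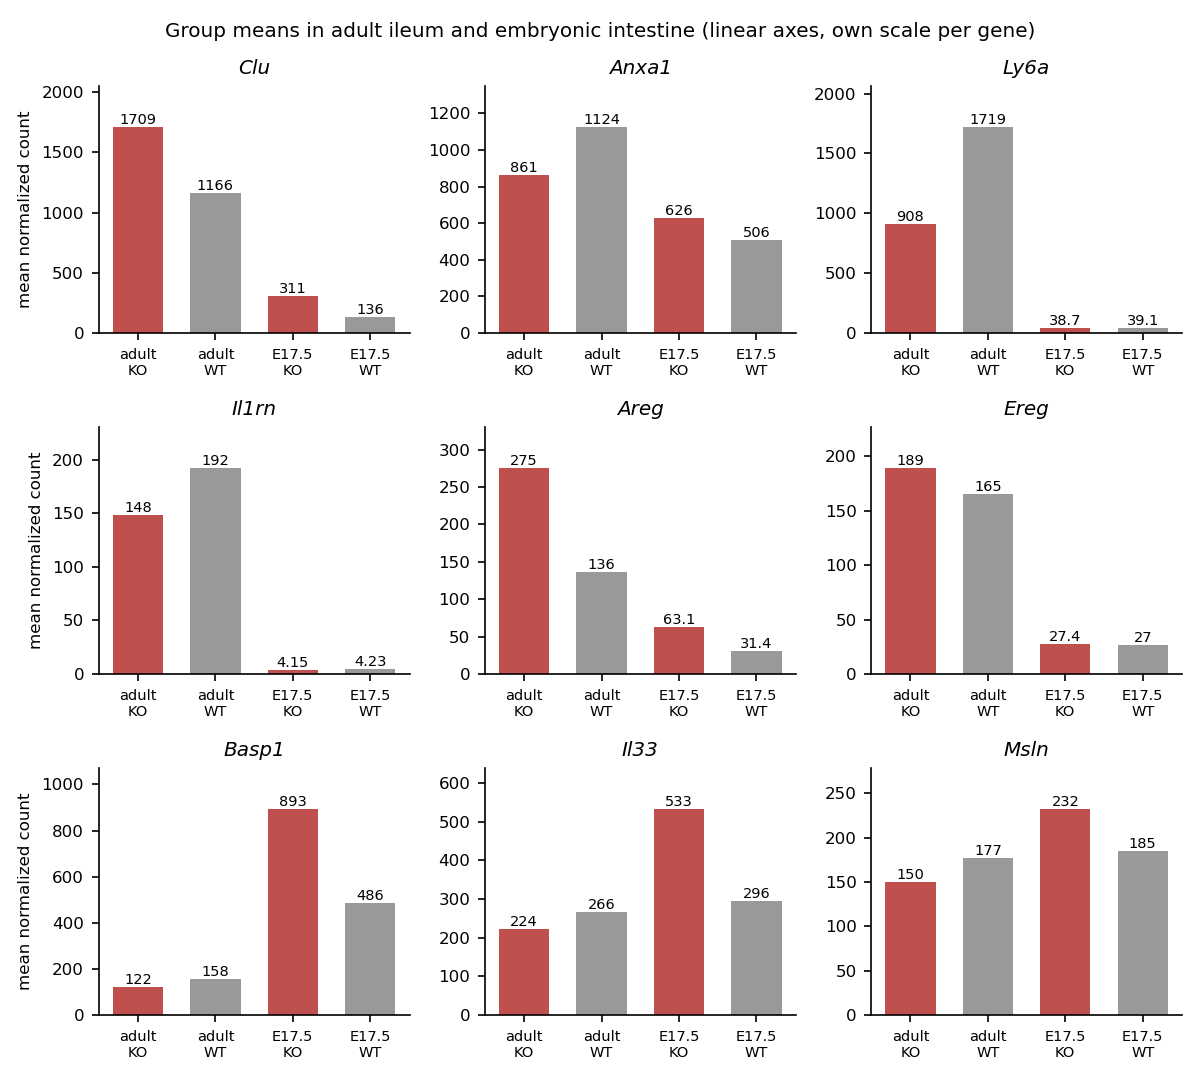
Mean normalized count of each gene (y axis, linear, own scale per panel) in adult ileum and E17.5 intestine labelled KO or WT; each bar is the authors' mean of a group, with no error available. Clu, Anxa1, Ly6a, Il1rn, Areg and Ereg stand higher in both adult groups than in both embryonic groups. Basp1 stands lower, as do Il33 and Msln, which are within 2-fold between the WT groups.

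In the embryo the comparison of KO with WT asked what Taf4 contributes in the developing epithelium. Clu was the only one of the 9 genes over 2-fold higher and none was lower, where 2.16% of 16484 genes were higher and 8.32% lower. Areg, Basp1 and Il33 stood between 0.85 and 0.98 on the log2 scale, and the median log2 ratio of the 8 genes over the minimum was 0.59, beside 0.04 over all genes.

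Clu had 311 in KO and 136 in WT embryos (2.28-fold, log2 ratio 1.18), above 98.6% of genes over the minimum. Areg had 63.1 in KO and 31.4 in WT embryos, which is 2.01-fold but 0.98 on the log2 scale with 1 added. Basp1 had 893 in KO and 486 in WT embryos (log2 ratio 0.88) and Il33 had 533 in KO and 296 in WT embryos (0.85). With group totals made equal, Areg and Basp1 also pass 2-fold, at log2 ratios of 1.12 and 1.01. Fibroblast markers summed to 181924 in KO and 102903 in WT embryos and epithelial markers to 38251 and 56922, and those of enteric neurons and glia to 2128 and 1680. Their part in the values of Basp1 and Il33 was not tested.

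Msln had 232 in KO and 185 in WT embryos and Anxa1 had 626 and 506. Ly6a had 38.7 in KO and 39.1 in WT embryos, Ereg 27.4 and 27.0 and Il1rn 4.15 and 4.23, so that these 3 genes were nearly level. In the list of other fetal and regenerative genes Anxa8 alone passed 2-fold, with 46.7 in KO and 108 in WT embryos. The IL-1 pathway list had 3 lower genes and no higher one among 11. These were Il18 (53.1 in KO and 431 in WT), the cytokine gene Il1a (10.2 and 48.0) and the adaptor kinase gene Irak2 (302 and 783).

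In adult ileum Areg was the only one of the 9 genes over 2-fold higher and none was lower, where 3.58% of 16748 genes were higher and 6.58% lower. Areg had 275 in KO and 136 in WT adults (2.03-fold, log2 ratio 1.01), and with 5 added to each mean its log2 ratio is 0.99. The median over the 9 genes was -0.25, beside -0.05 over all genes. Areg and Clu were higher in KO than in WT at both stages.

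Clu had 1709 in KO and 1166 in WT adults (1.47-fold, log2 ratio 0.55) and Ereg 189 and 165. Ly6a ran the other way with 908 in KO and 1719 in WT adults (log2 ratio -0.92), a ratio above that of 7.39% of genes over the minimum. Anxa1 had 861 in KO and 1124 in WT adults, Il1rn 148 and 192, Basp1 122 and 158, Il33 224 and 266 and Msln 150 and 177, with log2 ratios of -0.38 to -0.24. T and NK cell markers summed to 1818 in KO and 6451 in WT adults, with 8 of 9 genes over 2-fold lower, beside macrophage sums of 7412 and 7190. Ly6a is also a gene of lymphocytes, and the part of these cells in its value was not tested.

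Among 9 other genes of the EGF family and its receptors that reached the minimum, Nrg1, a ligand of ErbB receptors, was past 2-fold, with 163 in KO and 54.0 in WT adults. The feedback genes were split, with Etv4 (164 in KO and 43.7 in WT) and Dusp4 (112 and 50.7) higher and Dusp6 (308 and 822) lower. Olfm4 had 1799 in KO and 5991 in WT adults.

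Values per library existed for tumours only. Read counts recovered from the FPKM gave depths of 22.8 to 39.0 M reads, and the 9 genes had between 231 and 106593 reads per library. The library labelled KO replicate 3 carries in its label the names given to both other KO libraries, and its FPKM lay between theirs for 64.3% of 13628 genes and for all 9 genes described here. The share was 16.4% to 41.3% for the other libraries. It may therefore not be an independent sample, and results are also given without it. Each other library has a name of its own, but the labels do not say what the names stand for, and p-values cover the variation among these 6 libraries only.

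No gene of the 9 passed the test between Taf4 KO Apc tumours and Apc tumours (limma on log2(FPKM + 1), Benjamini-Hochberg adjusted p under 0.05 and over 2-fold), where 0.217% of 13794 genes were called higher and 0.797% lower. At an unadjusted p under 0.05 there were 2 of the 9 genes, Ly6a and Il33, and 27.8% of all genes. In 3 genes every KO library lay below every Apc library, and in none did every KO library lie above, beside 8.50% and 26.9% of all genes. The median log2 difference of the 9 genes was -0.40, beside 0.14 over all genes. Without KO replicate 3 limma called no gene at all, with 2015 of 13792 genes at an unadjusted p under 0.05.

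**Figure D3:**
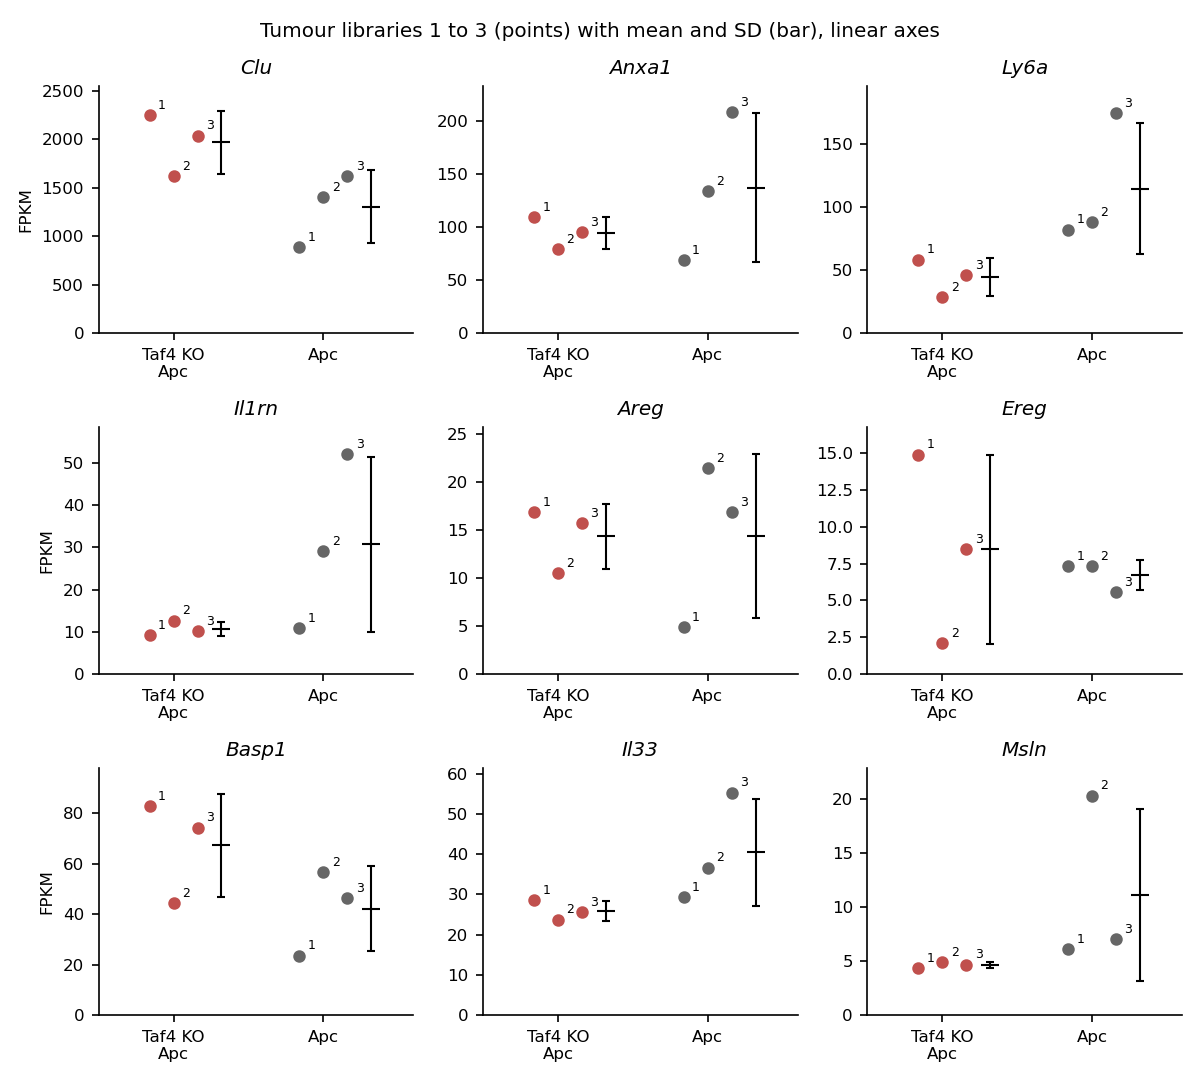
FPKM (y axis, linear, own scale per panel) of each gene in the 3 Taf4 KO Apc and the 3 Apc tumour libraries; points are libraries with their replicate number, and the bars give mean and SD (n = 3). The groups separate for Ly6a, Il33 and Msln, with KO below, and overlap for the other genes.

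Per length, Clu was by far the highest of the genes in every tumour library and took 87.4% to 88.7% of their summed FPKM in KO and 74.2% to 79.2% in Apc libraries. It had 2253, 1619 and 2041 FPKM in KO tumours and 887, 1403 and 1624 FPKM in Apc tumours. All KO libraries but replicate 2 lay above the Apc libraries, and replicate 2 lay just under the highest of them. The log2 difference was 0.63 ± 0.26 (SE, n = 3 each, limma adjusted p = 0.18), and 0.59 without KO replicate 3 (adjusted p = 0.42). Without Apc replicate 1, the lowest library, it was 0.37.

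Ly6a had 58.3, 28.6 and 46.0 FPKM in KO tumours and 82.1, 87.8 and 174 FPKM in Apc tumours, without overlap. The log2 difference of -1.32 ± 0.37 (SE, n = 3 each) had an adjusted p of 0.098 in limma and 0.31 without KO replicate 3. Il33 had 28.6, 23.7 and 25.5 FPKM in KO and 29.4, 36.7 and 55.2 FPKM in Apc tumours. Its groups were apart by less than 1 FPKM, and the log2 difference was -0.58 ± 0.23 (limma adjusted p = 0.17, and 0.39 without KO replicate 3). Without Apc replicate 3 it was -0.33.

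Msln was low, with 4.34, 4.91 and 4.66 FPKM in KO tumours and 6.07, 20.3 and 7.04 FPKM in Apc tumours. The KO libraries lay close together below the others, and Apc replicate 2 stood apart above. The log2 difference was -0.92 ± 0.41 (limma adjusted p = 0.20), and -0.93 without KO replicate 3 (adjusted p = 0.42). Without Apc replicate 2 it was -0.42. Mesothelial markers summed to 3.38 to 5.47 FPKM in KO and 4.33 to 12.3 FPKM in Apc tumours, and their part in the Msln difference was not tested.

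Il1rn had 9.22, 12.6 and 10.1 FPKM in KO tumours and 10.9, 29.1 and 52.0 FPKM in Apc tumours. Apc replicate 1 lay among the KO libraries while the other Apc libraries stood above. The log2 difference was -1.20 ± 0.51 (limma adjusted p = 0.19), and -1.18 without KO replicate 3 (adjusted p = 0.41). Without Apc replicate 1 it was -1.79 with an adjusted p of 0.045, so that 1 library decides whether the gene passes, and without Apc replicate 3 it was -0.71.

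Areg had 16.9, 10.5 and 15.7 FPKM in KO and 4.91, 21.4 and 16.9 FPKM in Apc tumours, with means of 14.4 ± 3.39 and 14.4 ± 8.52 FPKM (SD, n = 3 each). The groups overlapped throughout and the log2 difference of 0.18 ± 0.50 had a 95% interval of -1.04 to 1.39. It was 0.11 without KO replicate 3 and turned to -0.41 without Apc replicate 1. Ereg had 14.9, 2.08 and 8.47 FPKM in KO and 7.31, 7.31 and 5.55 FPKM in Apc tumours, where the KO libraries spanned the Apc libraries on both sides. Its log2 difference was 0.01 ± 0.57, with an interval of -1.37 to 1.39, and -0.13 without KO replicate 3.

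Basp1 had 83.0, 44.4 and 74.4 FPKM in KO and 23.5, 56.6 and 46.4 FPKM in Apc tumours, and Anxa1 had 109.6, 79.0 and 95.1 FPKM in KO and 68.6, 134 and 209 FPKM in Apc tumours. Both overlapped, with log2 differences of 0.70 ± 0.37 and -0.40 ± 0.39 (limma adjusted p = 0.26 and 0.51), and 0.60 and -0.41 without KO replicate 3 (0.52 and 0.66). Apc replicate 1 was the lowest library for both. Without it the differences were 0.34 for Basp1 and -0.83 for Anxa1, and without Apc replicate 3 that of Anxa1 was -0.03.

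Markers of T and NK cells, B and plasma cells, mast cells and smooth muscle summed higher in every Apc library than in any KO library. Marker sums were 17.1 to 23.6 FPKM in KO and 39.0 to 248 FPKM in Apc tumours for T and NK cells (8 of 9 genes without overlap, KO below), 77.0 to 144.1 and 165 to 832 FPKM for B and plasma cells, 41.6 to 89.7 and 111 to 1338 FPKM for mast cells, and 102 to 159 and 160 to 477 FPKM for smooth muscle. Without overlap, KO below, were 3 of 6 B and plasma, 3 of 7 mast and 3 of 6 smooth muscle genes, beside 8.50% of all genes. Macrophage sums overlapped at 111 to 200 FPKM in KO and 67.6 to 287 FPKM in Apc tumours. Fibroblast sums did so at 123 to 244 and 70.5 to 236 FPKM, and neutrophil sums at 7.58 to 25.7 and 8.03 to 24.6 FPKM. Epithelial markers summed to 4528 to 5151 FPKM in KO and 5074 to 7444 FPKM in Apc tumours. No marker list was at 0. The part of these cells in the lower values of Ly6a, Il33 and Il1rn in KO tumours was not tested.

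**Figure D4:**
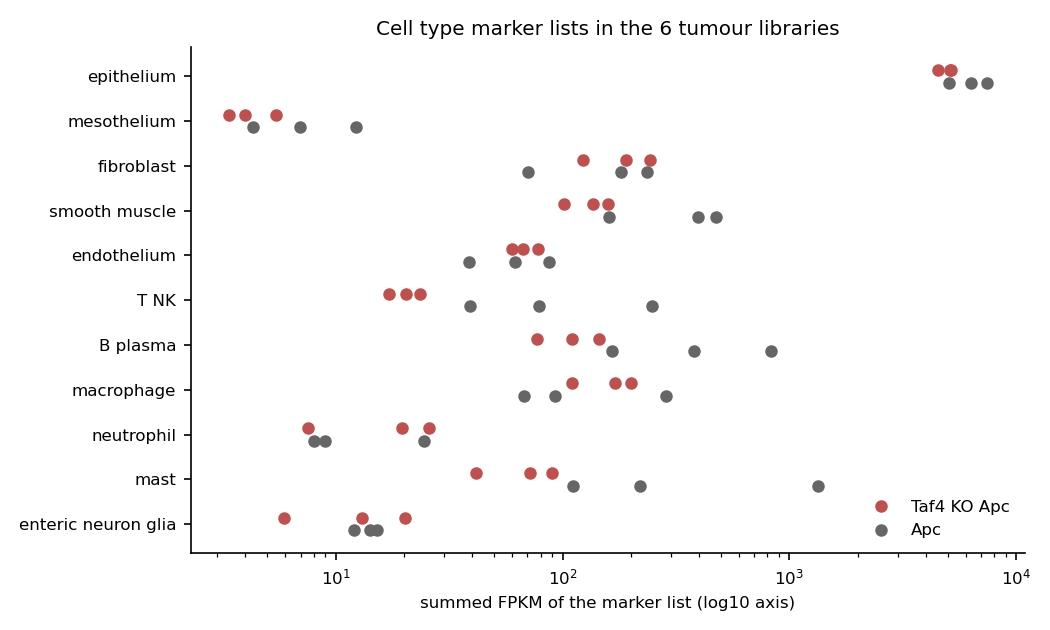
Summed FPKM of marker lists for 11 cell types (x axis, log10) in each of the 6 tumour libraries, Taf4 KO Apc above Apc in each row. T and NK, B and plasma, mast cell and smooth muscle sums are lower in all KO libraries, from 17.1 to 23.6 FPKM against 39.0 to 248 FPKM for T and NK cells.

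The other lists held no called gene in tumours. Of 27 other fetal and regenerative genes tested, 2 lay above and 2 below without overlap in KO (median log2 difference -0.20). Of 14 YAP targets none lay above and 4 below (median -0.10). Over all genes 26.9% lay above and 8.50% below. Other EGF family ligands and their receptors had a median of 0.07 over 8 genes and the IL-1 pathway one of 0.06 over 12 genes.

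Across the settings the 9 genes kept no common course, as the plot of log2 ratios shows. Clu had positive log2 ratios with Taf4 loss in organoids, embryos, adults and tumours (3.24, 1.18, 0.55 and 0.63), and only in tumours could this be tested, where it did not pass. Areg had 1.66, 0.98 and 1.01 in organoids, embryos and adults and 0.18 in tumours, where 1 library decides its sign. Il1rn and Msln were higher in organoids (1.95 and 1.24), but their values were -0.37 and -0.24 in adults and -1.20 and -0.92 in tumours. Ly6a was nearly level in organoids and embryos (0.17 and -0.02), and had -0.92 in adults and -1.32 in tumours. Basp1 had 0.88 in embryos, -0.37 in adults and 0.70 in tumours, and did not exceed 13.4 normalized counts in organoids. Whether the changes differ between settings was not tested, since the group means carry no spread.

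**Figure D5:**
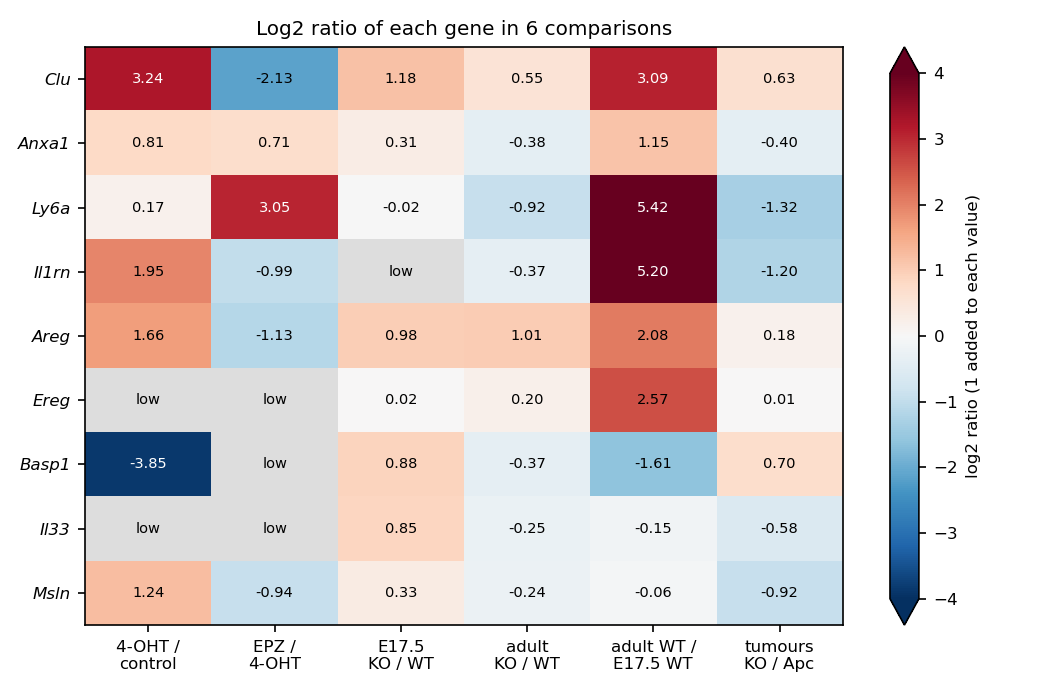
Log2 ratio of each gene (rows) in 6 comparisons (columns), with 1 added to each value; colour gives the ratio from -4 to 4, values beyond this are shown in the end colours, and grey cells marked low did not reach a mean of 10. Red is higher in the first-named group; Clu is positive in all columns but EPZ over 4-OHT, where it is -2.13.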

How the data were processed

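By the study's methods, adapters were trimmed with cutadapt 1.10, ribosomal sequence was filtered out with Bowtie2 2.2.8, and the authors mapped the remainder to mm9 using STAR 2.5.3a, counted per Ensembl gene with HTSeq and normalized by the median of ratios (DESeq2). Labels name a stranded poly(A) kit, and the methods another kit for amplified cDNA. For tumours, labels list mm9 and mm10, and the annotation is not given in the sources used here. For organoids, adults and embryos the authors deposited a mean normalized count per group, a signal with 1 value per gene. The tumour table holds FPKM of each library as deposited, keyed by Entrez identifiers. Both also hold the authors' log2 fold changes and p-values, which were not used. There were 0 unused per-sample columns.

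Group means were compared as log2 ratios with 1 added, without a test. Their sums were 16.2, 15.3 and 14.0 M in EPZ, 4-OHT and control organoids, 14.7 and 16.6 M in KO and WT adults and 11.9 and 13.1 M in KO and WT embryos. Making these totals equal moved the log2 ratios of well expressed genes, and less those of low genes, by 0.13, 0.17, -0.33, -0.30, -0.12, -0.09 and -0.21 in the comparisons of embryo KO with WT, adult KO with WT, adult with embryo WT, adult with embryo KO, 4-OHT with control, EPZ with 4-OHT and EPZ with control. Tumours were tested with limma 3.58.1 (R 4.3.3, trend in eBayes) on log2(FPKM + 1) over genes whose mean reached 1 FPKM in at least 1 group, and adjusted by Benjamini and Hochberg over all 13794 genes. This scale understates changes of low genes. The procedure was checked on simulated data drawn as independent libraries with a fixed spread. That check does not give its error rate in these tumours. Whole reads were recovered from the FPKM of all 21419 genes with a value. Promoters came from RefSeq (GRCm38.p6), with 5 of 9 genes matched, and positions from GENCODE M1 (mm9). Python 3.11.15, numpy 2.4.6, pandas 2.3.3 and matplotlib 3.10.9 were used.

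The genes and the other lists were chosen with earlier results of these data known. All 9 genes are named in every group, and of other lists up to 4 genes per comparison with the largest absolute log2 value among those called or past 2-fold, with Lgr5 and Olfm4 as counterpart, Taf4 as target, and cell type markers as whole lists. Alternatives were other pseudocounts, filters, scalings, limma without trend, a replicate block and leaving out each tumour library.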

Additional observations from a re-analysis of the deposited data

How the results depend on the processing

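In organoids, adults and embryos 216 ratios of single genes were recomputed. None past 2-fold changed sign, and 7 crossed 2-fold. With equal group totals, 3 of the 9 genes were higher in KO embryos and 4 were lower in EPZ than in 4-OHT organoids, where Il1rn and Msln had -1.07 and -1.02, and Clu was at 0.89 in EPZ against control. With 5 added to each mean, 0 were higher in KO adults. Without a filter 2 genes were lower with 4-OHT than in control and 2 higher in EPZ than with 4-OHT, and with a filter at 50 the count of lower genes was 0 for 4-OHT and for EPZ against control.

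In tumours none of the 9 genes passed under any alternative but Il1rn without Apc replicate 1. Without 1 library Clu ranged from 0.37 to 0.81, Anxa1 from -0.83 to -0.03, Basp1 from 0.34 to 0.97, Ly6a from -1.55 to -0.98, Il1rn from -1.79 to -0.71, Il33 from -0.78 to -0.33 and Msln from -1.22 to -0.42, none changing sign. Areg ranged from -0.41 (without Apc replicate 1) to 0.55 and Ereg from -0.51 (without KO replicate 1) to 0.68. Ereg also turned negative at pseudocounts of 0.1 (-0.0503) and 0.5 (-0.0179), with FPKM rescaled to equal medians (-0.11), and without KO replicate 3 (-0.13) or Apc replicate 3 (-0.10). Over all genes, 30 were called higher and 110 lower. The counts were 56 higher at a pseudocount of 0.1, 7 higher and 35 lower without a filter, 19 and 66 without the trend, and 9 and 67 with rescaled FPKM, which moved the median of all genes from 0.14 to 0.01. The share lower was 78.6%, and 68.0% at a pseudocount of 0.1 and 88.2% with rescaled FPKM. Leaving out 1 library gave 0 to 31 higher and 0 to 163 lower genes, and 0 to 1 of the 9 genes lower. All libraries but Apc replicate 1 moved a count by over 1.5 times, with 0 and 0 without KO replicate 3, 0 and 5 without KO replicate 1, 0 and 2 without KO replicate 2, 1 and 22 without Apc replicate 2, and 5 and 66 without Apc replicate 3. Same-numbered libraries had correlations of -0.17, -0.20 and -0.04, so that the numbers do not pair them, and a replicate block gave 0 higher and 1 lower gene, none of them among the 9.

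Count-based tests on the recovered reads, with either of 2 scalings, were not run, since FPKM is the deposited unit. For the group means the depth per library is unknown.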
